A study of Rattus norvegicus with 2 samples.

Results

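Fos, Fosb, Jun, Junb, Atf3, Egr1 and Ier2 are immediate-early genes, and Klf3, Klf4 and Klf6 are Krüppel-like factors with which they are often seen to move. The 10 genes were found by their symbols among the 32883 genes of the matrices, where each symbol belonged to a single identifier, and all 10 had UMIs in both rats. Their identifiers were ENSRNOG00000008015 (Fos), ENSRNOG00000046667 (Fosb), ENSRNOG00000026293 (Jun), ENSRNOG00000042838 (Junb), ENSRNOG00000003745 (Atf3), ENSRNOG00000019422 (Egr1), ENSRNOG00000054344 (Ier2), ENSRNOG00000002163 (Klf3), ENSRNOG00000016299 (Klf4) and ENSRNOG00000016885 (Klf6). The samples were 2 male Sprague Dawley rats, an outbred laboratory strain, of 6 to 8 weeks and 180 to 200 g per the sample labels, both fasted overnight and otherwise untreated. Epithelium of the proximal jejunum was released in 30 mM EDTA for 20 min and digested with dispase at 1 mg/ml for 10 to 12 min, both at 37 °C, and each rat gave 1 droplet-based 3′ library. Unique molecular identifiers (UMIs) were counted per gene and barcode. Neither sample was fixed before digestion, so a level set in the tissue and a level reached during dissociation cannot be told apart here.

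Immediate-early genes are transcribed within minutes of a growth factor, cytokine or stress, from promoters that are held ready and need no new protein, and their mRNAs are short-lived. Fos and Fosb proteins pair with Jun and Junb to form the AP-1 transcription factor, Atf3 is a stress-induced factor of the same leucine-zipper family, Egr1 is a zinc-finger factor, and Ier2 is a small early response protein. Warm enzymatic dissociation is known to raise them in many tissues. Krüppel-like factors bind GC-rich sites, and in the intestine Klf4 is known for its place in differentiated villus cells and goblet cells. Klf3 acts mostly as a repressor.

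RefSeq promoter sequences (assembly GRCr8, whereas the counts were made on Rnor6) were listed for 7 of the 10 genes, namely Fosb, Junb, Egr1, Ier2, Klf3, Klf4 and Klf6. In the 250 bases before the annotated start, on both strands, the cAMP response element TGACGTCA stood in 1 of the 7 (Ier2), against 1.59% of all 33469 promoters listed, and its core TGACG, which overlaps it, in 3 (Junb, Egr1 and Ier2), against 18.2%. The CArG box of serum response elements stood in 2 (Egr1 and Klf6), against 1.497%. TATAAA stood in 3 (Fosb, Junb and Klf4), against 12.9%, and GGGCGG in 1 (Klf6), against 30.5%. The AP-1 site TGANTCA (6.34% of all promoters) and the Egr site GCGNGGGCG (4.29%) were in none of the 7. A match is a string of letters and not a bound site. Stretches of 60 bases are shown, 5′ to 3′ on the gene's strand, with the matched letters in capitals, as examples of these matches. They are Ier2 at chr19:40399281-40399340 (plus strand, the response element beginning 66 bases before the start), Klf6 at chr17:69458645-69458704 (minus strand, the CArG box beginning 201 bases before it) and Junb at chr19:40081050-40081109 (plus strand, the TATA letters beginning 49 bases before it).
Ier2: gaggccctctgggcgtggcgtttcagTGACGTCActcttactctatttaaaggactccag
Klf6: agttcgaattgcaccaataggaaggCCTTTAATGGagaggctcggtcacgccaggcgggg
Junb: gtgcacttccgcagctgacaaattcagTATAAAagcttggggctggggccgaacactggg

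Barcodes with over 5000 UMIs and at most 40% mitochondrial UMIs were kept, 6035 of 12033 in rat 1 and 2303 of 8252 in rat 2, with a median of 12231 and 13334 UMIs. The libraries held 99986348 and 66469907 UMIs in all. The 10 genes and the lists below, 96 genes together, were kept out of the genes used for clustering, so that cell classes were drawn without them. Rat 2 gave few crypt-like cells (34, against 1240 in rat 1) and rat 1 gave few tuft-like cells (12, against 129), CFTR high expresser (CHE)-like cells (7, against 79) and immune cells (8, against 241). Goblet-like cells numbered 165 and 138, and enteroendocrine (EEC)-like cells 21 and 11. The 8 immune cells of rat 1 carried 145892 CPM (UMIs of a gene per 1000000 UMIs of the summed cells) of hemoglobin genes and 4617 CPM of immune markers, against 30090 and 15049 in rat 2, so they do not bear out their label, and immune values rest on rat 2. The libraries shared 28 barcodes, 4 of them among the cells kept. Enterocyte-like cells (4013 and 1127) were split within each rat into 3 maturity bins of equal size, termed early, mid and late, by a score of villus tip genes against villus base genes. Of these cells, 12.1% in rat 1 and 7.72% in rat 2 had a score within 0.05 of a limit between bins. Alpi, the brush border alkaline phosphatase, which was not in the score, was at 205, 460.3 and 1104 CPM over the bins in rat 1 and at 1394, 2373 and 3302 CPM in rat 2. Fabp1 went up with it in rat 1 but was lower in the late than in the mid bin of rat 2 (16876 against 31225 CPM). Si, sucrase-isomaltase, was at 846 CPM early and 114 CPM late in rat 2. Enpep, a villus tip gene of the score, fell over the bins of rat 2 (664, 493 and 78.8 CPM), against 545, 668 and 614 CPM in rat 1. The other tip genes of the score were higher late than early in rat 2, and its base genes lower. Reg3b, a base gene, still rose there from 824 CPM mid to 980 CPM late. The late bins of the 2 rats thus differed in these markers. Median UMIs per cell were 29755.5 early and 14114 late in rat 2, and 12286 and 11298 in rat 1.

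Levels are given as CPM of the summed cells, with counting error only. Single libraries gave each value, so 2 values stand behind each class. No class was highest for all of the genes, and the class that was highest often differed between the rats. In both rats Junb was highest in EEC-like cells, Jun and Klf3 in CHE-like cells and Egr1 in goblet-like cells. Fos was highest in the late enterocyte bin of rat 1 (294 CPM) and in EEC-like cells of rat 2 (616 CPM), and Fosb in CHE-like cells of rat 1 (311 CPM from the 7 cells there) and in EEC-like cells of rat 2 (244 CPM). Atf3 and Klf4 were highest in goblet-like cells of rat 1 (93.6 and 459.8 CPM), and in rat 2 Atf3 was so in EEC-like cells (295 CPM) and Klf4 in CHE-like cells (1475 CPM). Ier2 was highest in CHE-like cells of rat 1 (370.2 CPM) and goblet-like cells of rat 2 (246 CPM). Klf6 was so in tuft-like cells of rat 1 (30.1 CPM, from only 3 UMIs in 12 cells) and goblet-like cells of rat 2 (97.3 CPM). In most of these cases the counting interval overlapped that of the class ranked next. Crypt-like cells of rat 2 held the lowest sum for Fosb and Junb, and Atf3 had no UMI there nor in the tuft-like and immune cells of rat 1. The erythroid cluster (28 and 309 cells) was read as a reference for free RNA, since mature red cells transcribe little. Whether its UMIs of the 10 genes are free RNA or its own was not tested. In this cluster the 10 genes summed to 152 CPM in rat 1 and 64.4 CPM in rat 2, against 1352 and 1510.2 CPM over all cells kept. Klf3 was the highest of the 10 there, at 40.2 and 18.0 CPM.

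**Figure D1:**
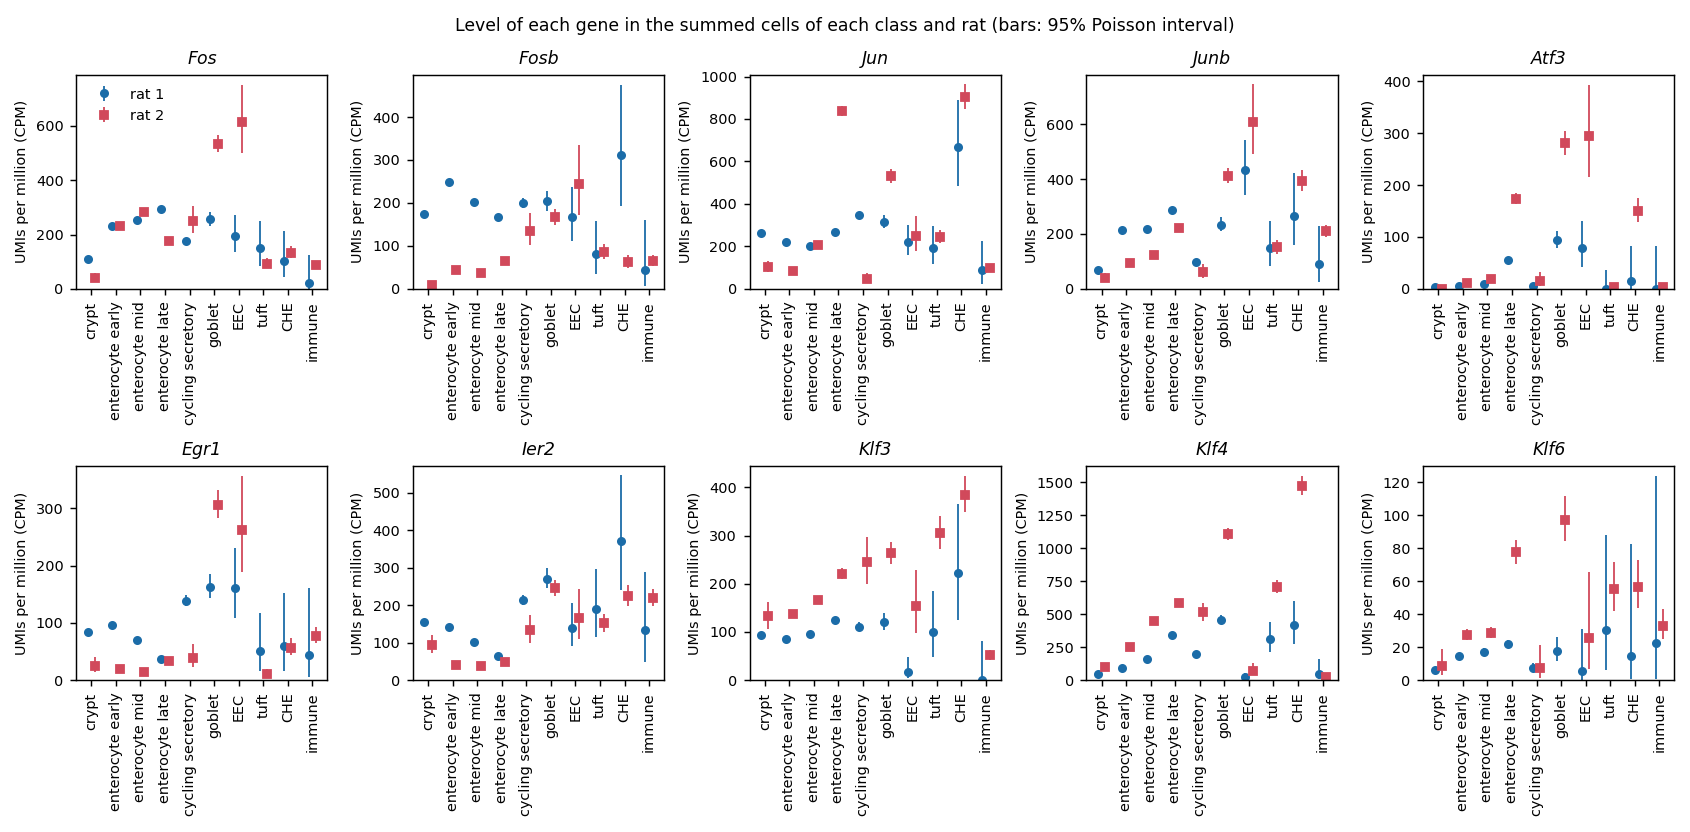
Level of each of the 10 genes (y axis, CPM) in the summed cells of each class (x axis) for rat 1 (circles) and rat 2 (squares), with 95% Poisson intervals that cover counting error only. Atf3 stays at or below 18.1 CPM outside late enterocyte-like, goblet-like, EEC-like and CHE-like cells, and Klf4 reaches 1475 CPM in CHE-like cells of rat 2.

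To see how many of these genes single cells held at once, each cell was thinned to 5000 UMIs and the 7 immediate-early genes with a UMI were counted. In goblet-like cells, 47.3% of rat 1 (95% exact interval 39.5 to 55.2%) and 68.1% of rat 2 (59.7 to 75.8%) held 4 or more of the 7. In early enterocyte-like cells the share was 40.9% in rat 1 and 7.18% in rat 2, and in late ones 37.2% and 30.6%. Crypt-like cells gave 23.0% and 5.88%, and tuft-like cells 16.7% and 13.2%. Other secretory classes came near goblet-like cells, with 38.1% and 63.6% in EEC-like cells (21 and 11 cells) and 42.9% and 43.0% in CHE-like cells (7 and 79 cells). Cycling secretory cells gave 44.1% and 26.3%. In the erythroid cluster, at a median of 5460.5 and 7070.0 UMIs per cell before thinning, 0 of 28 and 0 of 309 cells held 4 or more (exact 95% upper limits 12.3 and 1.19%), and 82.1% and 88.7% held none. Cells with several of the genes were thus found in every epithelial class of both rats and not in the erythroid cluster, and 41.2% of the crypt-like cells of rat 2 held none of the 7.

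The first comparison asked how the genes change as enterocytes mature, late against early bin. With bins from the villus score the fold change was largest in Atf3, whose level was 5.82, 9.22 and 55.8 CPM in the early, mid and late bins of rat 1 and 10.8, 18.1 and 174 CPM in the same bins of rat 2. Jun, a core AP-1 partner, measured 220.4, 202 and 267 CPM in rat 1 and 84.0, 206 and 838 CPM in rat 2, so that most of its difference lay in rat 2. Klf4 measured 91.4, 161 and 339 CPM in rat 1 and 250.4, 448 and 586 CPM in rat 2, higher at each step in both. Junb and Klf6 were also higher late than early in both rats, at 286 against 216 and 221 against 93.2 CPM for Junb and at 22.1 against 14.7 and 77.6 against 27.5 CPM for Klf6. Fosb, Egr1 and Ier2 went apart in the 2 rats, lower late than early in rat 1 and higher in rat 2. Egr1, for example, measured 95.5 early and 36.1 CPM late in rat 1 and 19.9 and 32.8 CPM in rat 2. Fos was at 232 and 294 CPM in rat 1 and at 231 and 175 CPM in rat 2, while on the TMM scale of the test below its log2 fold change was positive in both (0.78 and 0.38). Klf3 was somewhat higher late in both rats, at 125 against 85.2 CPM and 221 against 137 CPM.

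By edgeR's quasi-likelihood test over 10294 genes with Benjamini-Hochberg adjustment, none of the 10 genes was called at an adjusted p under 0.05, where 0.165% of all genes were called. Atf3 came nearest, with a log2 fold change of 4.52 ± 1.03 (SE, n = 2 rats; adjusted p = 0.0897 in edgeR), followed by Jun at 2.65 ± 0.87 (adjusted p = 0.208), and Klf4 (2.09), Klf6 (1.97) and Junb (1.35) had unadjusted p-values of 0.0285, 0.0284 and 0.0324 in the same edgeR model. That is 5 of the 10 at an unadjusted p under 0.05, with 1432 of all genes, and DESeq2 called 2, Jun (2.89, adjusted p = 0.0333) and Atf3 (4.72, 0.00456). With bins from a score of enterocyte markers in place of the villus score, an alternative chosen after seeing the data, the fold change of Atf3 was 1.56 (edgeR adjusted p = 0.374), that of Jun 0.94 and that of Klf6 0.96, and Klf4 was the largest of these 5 at 2.21, so the sizes for Atf3 and Jun depend on the score. The 2 sums of each class come from the same 2 animals. With the rat as a block, 4 of the 10 were called, all higher late, namely Atf3 (4.27, edgeR adjusted p = 4.66e-05), Klf4 (2.16, 0.00218), Klf6 (1.71, 0.0204) and Jun (2.68, 0.0296), with 1308 genes called in all. The TMM scaling used by the test set the median of all genes near 0 (-0.06), where library totals put it at -0.62, and under library totals the fold change of Fos was 0.02 and that of Fosb -0.34 while Atf3, Jun, Klf4, Klf6 and Junb stayed positive. The median of the 10 genes was 1.33 against -0.06 for all genes. Of the other genes of the early response, none of 26 tested was called (median 1.57), nor any of 7 other AP-1 subunits (median 1.09), 8 other Klf genes (0.02), 12 heat shock genes (-1.10) or 11 regulators of the upstream kinase pathways (0.46).

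Clusters within the enterocyte-like cells gave a finer view than the bins. Of the 9 enterocyte-like clusters, the one highest in the villus score was led by Ada, Slc28a2 and Apoa4, genes of the villus tip that are part of the score, and held 82 cells of rat 1 and 98 of rat 2. In it Atf3 reached 566 CPM (95% Poisson interval 515 to 620.2) in rat 1 and 354 CPM (324 to 386) in rat 2. The next cluster on the score held 126 and 154 CPM of Atf3, and the other 7 clusters at most 21.3 and 34.3 CPM. Jun was likewise highest at the tip-like cluster of both rats, at 907 and 1079 CPM, with 495 and 843 CPM in the next cluster. Junb followed the same order at 673 and 321 CPM against 415 and 212 CPM, and Klf6 at 45.1 and 136 CPM against 20.9 and 64.1 CPM. Klf4 peaked there in rat 1 (892 CPM) but not in rat 2, where the cluster ranked 3 on the score from the top was higher (629 against 559 CPM). Fos did not share this pattern. Its level in the tip-like cluster of rat 1 (317 CPM, 279 to 359) overlapped that of the next cluster (343 CPM, 320.3 to 366), and in rat 2 it was lower there (159 CPM) than in the cluster where it was highest (334 CPM). These clusters are described with no test, since each rat gives 1 sum per cluster, and 2 of the clusters low on the score held only 17 and 18 cells of rat 2.

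**Figure D2:**
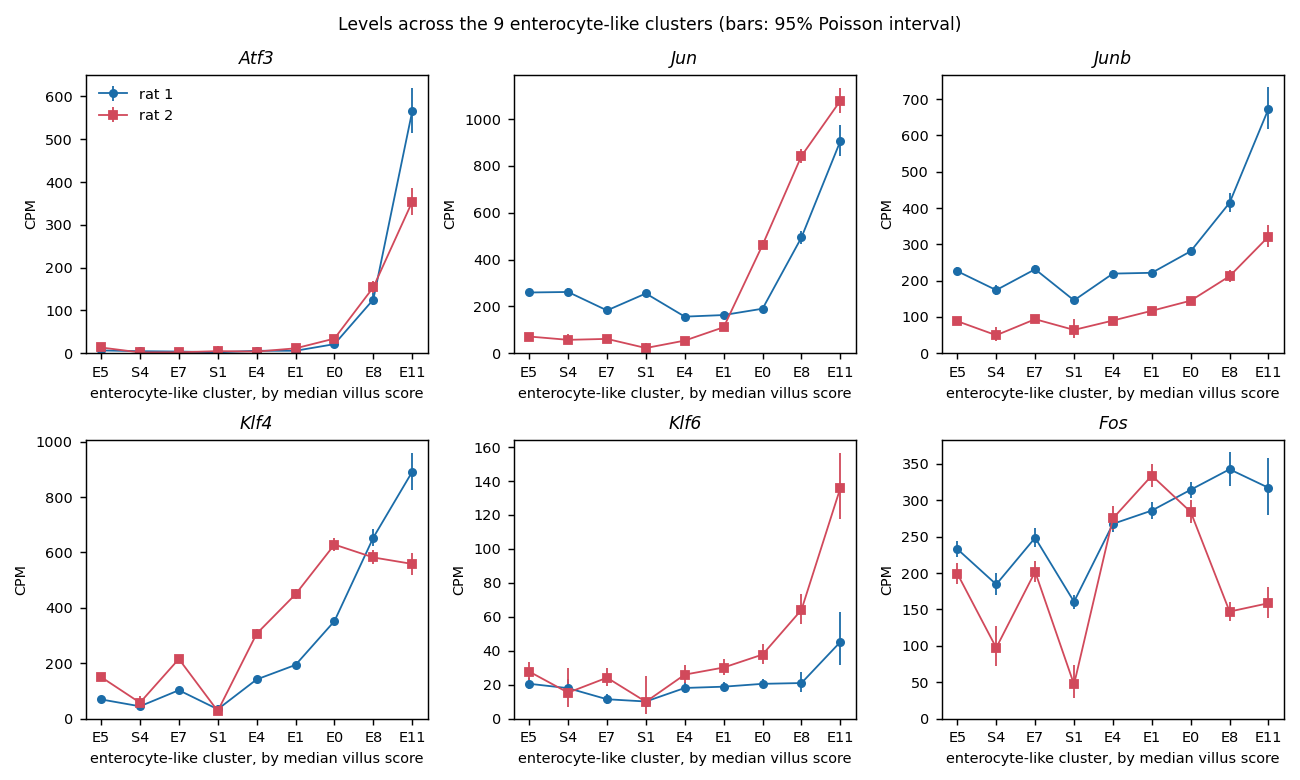
Levels of 6 of the genes (y axis, CPM) in the 9 enterocyte-like clusters (x axis), ordered by the median villus score of their cells in both rats together. Circles are rat 1 and squares rat 2, with 95% Poisson intervals, and Atf3 stays at or below 34.3 CPM in the first 7 clusters and is highest in the last in both rats.

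Crypt-like cells, the stem and cycling cells at the base of the epithelium, were compared with the mean of the 3 enterocyte bins. Fos, Junb, Atf3, Klf4 and Klf6 were lower in crypt-like cells. That is 5 of the 10, all lower, where 39.5% of all genes were called in either direction. Over both directions the share is close to that of any gene. Of the 10294 genes tested, 1784 were lower and 2285 higher. Atf3 had 63 UMIs (3.13 CPM) in the crypt-like cells of rat 1 and none in those of rat 2, where 3 UMIs would have made 4.36 CPM. Klf4 measured 46.0 and 97.5 CPM there, below every enterocyte bin of its rat. Junb measured 66.9 and 40.7 CPM and Fos 109 and 40.7 CPM, also below all 3 bins of the same rat. Klf6 measured 6.05 and 8.73 CPM, against at least 14.7 and 27.5 CPM in the bins. The log2 fold changes were -4.15 ± 1.02 for Atf3 (edgeR adjusted p = 0.00480), -3.05 ± 0.84 for Klf4 (0.00944), -3.01 ± 0.84 for Klf6 (0.00988), -2.64 ± 0.55 for Junb (0.00164) and -2.52 ± 0.60 for Fos (0.00387).

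Ier2, the small early response protein, did not follow them. It measured 154 and 94.6 CPM in crypt-like cells, and 142, 101 and 63.6 CPM in the bins of rat 1 and 39.5, 37.6 and 47.8 CPM in those of rat 2. Its log2 fold change of -0.01 ± 0.46 in edgeR (adjusted p = 0.993) turned to 0.83 under library totals, and Egr1 turned from -0.43 to 0.37, since library totals move the median of all genes from 0.08 to 0.95 and the share of higher calls among all calls from 56.2 to 83.0%. The 5 genes called were called under library totals too, with fold changes from -1.68 to -3.25. When the rat entered as a block, Klf3 was also called lower (-1.06, edgeR adjusted p = 0.0202). Of 26 other early response genes 15 were lower and none higher, with a median of -1.86. They include Sgk1, a stress- and hormone-induced kinase (-5.11 ± 1.24, edgeR adjusted p = 0.00425), and Dusp6, a phosphatase that acts on ERK (-4.79 ± 1.00, 0.00161). Of 12 heat shock genes 4 were higher and none lower, a share below the 39.5% of all genes called in either direction. Higher calls alone were 2285 of all 10294 genes. The largest fold change was in Hsp90ab1, a cytosolic chaperone, at 3419 and 3582 CPM in crypt-like cells against at most 560.0 CPM in any enterocyte bin. The AP-1 partner Mafk and the factor Klf15 were each the only lower member of their lists (1 of 7 and 1 of 8). Of the 11 kinase pathway regulators, Elk1 was higher and Mapk3, which encodes ERK1, lower.

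Goblet-like cells were set against the mean of the other 5 epithelial classes. These were crypt-like, enterocyte-like (the 3 bins averaged), EEC-like, tuft-like and CHE-like cells, and cycling secretory cells entered the fit but no comparison. All 10 fold changes were positive, and 4 were called, Atf3, Egr1, Klf4 and Fos, where 6.32% of all genes were called. Egr1 measured 163 CPM in goblet-like cells of rat 1 and 307 CPM in rat 2, the highest of all classes in both rats, though with intervals that overlapped those of EEC-like cells (161 and 263 CPM). Atf3 measured 93.6 and 280.3 CPM. Klf4 measured 459.8 and 1112 CPM, where only CHE-like cells of rat 2 were higher. The log2 fold changes were 3.51 ± 0.61 for Atf3 (edgeR adjusted p = 0.00127), 2.35 ± 0.56 for Egr1 (0.0159), 2.20 ± 0.56 for Klf4 (0.0234) and 1.65 ± 0.43 for Fos (0.0275). Under library totals the call of Atf3 stayed and those of the others were lost (adjusted p = 0.0583 for Egr1, 0.0565 for Klf4 and 0.119 for Fos in edgeR). With the rat as a block Ier2 (1.17, edgeR adjusted p = 0.0186) and Klf6 (1.46, 0.00985) were called as well. Enterocyte RNA was low in the class. Apoa1, an apolipoprotein of enterocytes, stood at 3.43% of its enterocyte level in goblet-like cells of rat 1. In those of rat 2 it stood at 8.39%. Atf3 stood above its level in any enterocyte bin of its rat, but below that in the tip-like enterocyte-like cluster (566 and 354 CPM). The part of enterocyte RNA in the goblet-like levels was not tested.

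The goblet-like class joined 2 clusters with different levels of these genes. The first (50 cells in rat 1, 105 in rat 2) had as leading genes Zg16 and Fcgbp, genes of mature goblet cells. The second (115 and 33 cells) had Spink4 and Clca1, with Lyz2 and other Paneth cell markers. In the first cluster Atf3 measured 321 CPM (95% Poisson interval 269 to 380.1) in rat 1 and 384 CPM (353 to 417) in rat 2, and in the second it measured 3.78 CPM (1.03 to 9.69) and 37.4 CPM (23.7 to 56.1). Junb was higher in the first cluster as well, at 486 and 551 CPM against 134 and 87.8 CPM, and so was Klf6 at 38.3 and 134 CPM against 9.46 and 11.4 CPM. Fosb went the other way, at 129 and 129.8 CPM against 233 and 254 CPM. Klf4 was high in both, at 642 and 1142 CPM against 388 and 1041 CPM. The first cluster held 50 of 165 cells of the class in rat 1 and 105 of 138 in rat 2, and the rats' Atf3 levels of 93.6 and 280.3 CPM over the whole class differ more than their levels in the first cluster. When the second cluster was left out, a choice made after the data were seen, 7 of the 10 genes were called, with Junb (2.17, edgeR adjusted p = 6.71e-04), Klf6 (2.71, 0.00215) and Ier2 (1.66, 0.00944) added. The number of all genes called rose too, from 651 to 1227.

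Other early response genes were higher in goblet-like cells in 5 cases of 26 and lower in 1. Ier5 had a log2 fold change of 2.35 ± 0.44 (edgeR adjusted p = 0.00245), Rhob, a small GTPase, 2.27 ± 0.57 (0.0214), and Dusp1, a phosphatase of stress kinases, 2.19 ± 0.54 (0.0193). Cebpd, the lower one, had no UMI in goblet-like cells of either rat, where 3 UMIs would have made 2.03 and 1.46 CPM. Its level was low elsewhere too, at most 3.62 CPM in any enterocyte bin. It was at most 11.5 CPM in any class and rat except CHE-like cells of rat 1 (59.2 CPM). Of the 11 kinase regulators Egfr alone was called, higher (2.92 ± 0.75, edgeR adjusted p = 0.0241). None of the other AP-1 subunits, the other Klf genes or the heat shock genes was called.

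EEC-like cells, which make hormones, held high levels of some immediate-early genes and little Klf4. Junb (433 and 609 CPM) and Atf3 (77.8 and 295 CPM) were called higher and Klf4 (22.2 and 70.6 CPM) lower, 3 of the 10 where 6.36% of all genes were called. For Klf4 these are 4 and 11 UMIs, and the class held 21 and 11 cells. All 14 and 46 UMIs of Atf3 lay in 2 cells of each rat, 9.52% and 18.2% of the class, and the other EEC-like cells had none, so the Atf3 level of the class is that of these few cells. Junb had UMIs in 66.7% and 90.9% of the EEC-like cells. The log2 fold changes were 1.45 ± 0.40 for Junb (edgeR adjusted p = 0.0399), 2.93 ± 0.68 for Atf3 (0.0136) and -3.24 ± 0.89 for Klf4 (0.0377). The call of Junb was lost in 3 alternatives (adjusted p up to 0.105) and that of Klf4 in 2 (up to 0.0579). With the rat as a block Egr1 (1.75, edgeR adjusted p = 0.0440) was called higher and Klf3 (-1.47, 0.0362) lower. Of the other early response genes 3 were higher, Nr4a1, Nr4a2 and Gadd45g. Nr4a1, an orphan nuclear receptor, measured 117 and 32.1 CPM in EEC-like cells and at most 16.5 CPM in any other epithelial class, and at 23.8 CPM in immune cells of rat 2. Zfp36l1, which promotes mRNA decay, was the 1 lower gene, at 11.1 CPM in rat 1 and with no UMI in rat 2. Heat shock genes were higher in 2 of 12 cases, Hspa4l among them, and of the kinase pathway list Crem, a CREB family factor, was called higher (2.53 ± 0.66, edgeR adjusted p = 0.0280). That call rests on rat 2, where Crem measured 77.0 CPM, since in rat 1 it measured 11.1 CPM in EEC-like cells, below tuft-like (20.1) and CHE-like cells (29.6). None of the other AP-1 subunits or other Klf genes was called in EEC-like cells.

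Tuft-like cells, a chemosensory type, had none of the 10 genes called, where 6.84% of all genes were called. At an unadjusted p under 0.05 there were 4, all lower (Fos, Junb, Egr1 and Atf3), with 1793 of all genes, and DESeq2 called 1, Atf3. Atf3 was nearly absent, with no UMI in the 12 cells of rat 1 and 4 UMIs (3.83 CPM) in the 129 cells of rat 2 (log2 fold change -4.22 ± 1.26, edgeR adjusted p = 0.0548). Egr1 was low too, at 50.1 and 11.5 CPM (-2.57 ± 0.93, edgeR adjusted p = 0.130). With the rat as a block both were called lower, Atf3 at -4.74 (edgeR adjusted p = 3.79e-04) and Egr1 at -2.66 (0.0271). Klf4 was well expressed, at 311 and 710.1 CPM. Its relative Klf9 was called higher (2.16 ± 0.41, edgeR adjusted p = 0.00254), as 1 of 2 of the 8 other Klf genes, and Trib1, a pseudokinase, was the only early response gene of 26 called, lower (-4.54 ± 1.26, edgeR adjusted p = 0.0376). Both were named after their values were seen. No gene of the other 3 lists was called. Library totals move the share of higher calls among all calls from 78.3 to 91.3% and the fold change of Ier2 from -0.37 to 0.09. Fabp1 stood at 40.7% of its enterocyte level in the tuft-like cells of rat 1 and at 139% in those of rat 2, whereas Apoa1 stood at 2.70 and 4.85%.

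CHE-like cells, CFTR high expresser cells with much of the chloride channel gene Cftr, had the highest Klf4 of any class in rat 2 (1475 CPM) and 415 CPM in rat 1. Klf4 alone was called, higher (2.34 ± 0.56, edgeR adjusted p = 0.0177), where 5.16% of all genes were called. Jun was the highest of all classes in both rats, at 666 and 904 CPM (1.69 ± 0.56, edgeR adjusted p = 0.104), though in rat 2 its interval overlapped that of the late enterocyte bin, and Klf3 likewise, at 222 and 385 CPM (1.26 ± 0.59, adjusted p = 0.276). Atf3 rested on rat 2, with 150.0 CPM against a single UMI (14.8 CPM) in the 7 cells of rat 1. With the rat as a block Jun (1.71, edgeR adjusted p = 0.0380), Atf3 (1.96, 0.00588) and Klf3 (1.22, 0.0261) were also called. Fos did not rise with them, at 104 and 133 CPM, below all enterocyte bins of its rat. Of the other early response genes 6 of 26 were higher and none lower, among them Cebpd (3.87 ± 1.05, edgeR adjusted p = 0.0423, with 59.2 CPM from 4 UMIs in rat 1 and 7 UMIs in rat 2), Gadd45b (3.24 ± 0.49, 4.38e-04) and Zfp36l1 (2.53 ± 0.51, 0.00549). No gene of the other 4 lists was called.

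Immune cells were compared with the mean of the 6 epithelial classes. Since the 8 cells of rat 1 did not bear out their label, only rat 2 gives an immune value, and no test of the conditions follows from it. In rat 2 Klf4 measured 25.6 CPM and Klf3 51.3 CPM, below every epithelial class of that rat. Fos measured 87.9 CPM and Jun 95.8 CPM, within the range of the epithelial classes, and so did Junb, Egr1 and Ier2 at 211, 77.5 and 219 CPM. Atf3 measured 4.27 CPM, from 7 UMIs in 241 cells.

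The edgeR model took the 8 cells of rat 1 as its second immune sum, with 2 UMIs of Klf4, 1 of Fos and none of Klf3, so its calls are listed only for completeness. It called Klf4 (-3.67), Klf3 (-2.45) and Fos (-1.90) lower, 3 of the 10 where 18.9% of all genes were called, and with the rat as a block also Jun (-2.19) and Atf3 (-3.84). Library totals left Klf4 alone of the 3 and moved the share of higher calls among all genes called from 53.7 to 72.3%. With all cells of the immune cluster kept, which brings in 243 and 83 cells with epithelial transcripts, none of the 3 calls stayed and the fold change of Fos was -0.02. Of the lists the same model called 1 of 7 other AP-1 subunits higher (Batf), 3 other early response genes higher and 4 lower of 26, 2 other Klf genes higher and 2 lower of 8, 2 kinase regulators higher and 1 lower of 11, and no heat shock gene.

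Seen over the comparisons within the epithelium, the median log2 fold change of the 10 genes was -1.96 against 0.08 for all genes in crypt-like, 1.39 against 0.12 in goblet-like, 1.02 against -0.08 in CHE-like, -1.06 against 0.04 in tuft-like and 0.23 against -0.19 in EEC-like cells. The comparisons share the other classes as reference, so they are not separate evidence. Atf3 was called in crypt-like, goblet-like and EEC-like cells and Klf4 in these and in CHE-like cells.

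**Figure D3:**
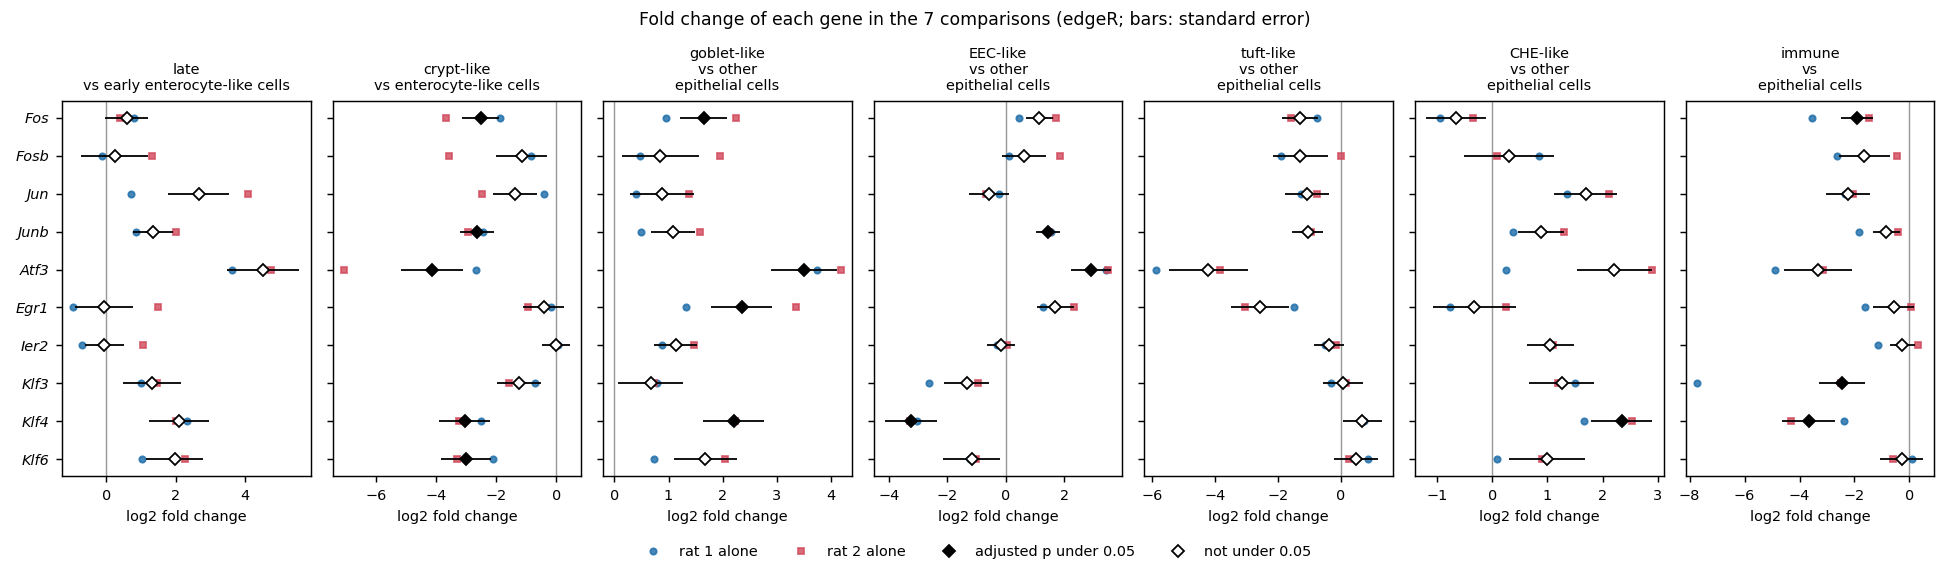
Log2 fold change of each gene (x axis, edgeR fit over both rats, diamonds with standard error bars) in the 7 comparisons (panels), with each rat alone as a circle (rat 1) or a square (rat 2). Filled diamonds mark an adjusted p under 0.05, of which there are 5 in the crypt-like panel, 4 in the goblet-like panel and none in the late against early and tuft-like panels. The immune panel includes the 8 cells of rat 1 that do not bear out their label.

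The rats differed in these genes, and not by a common factor. Fosb was higher in rat 1 in 7 of 10 classes with a 95% counting interval of the ratio above 1, Ier2 in 6, and Egr1 and Junb in 5 each. Klf3 was higher in rat 2 in 9 classes, Klf4 in 8 and Atf3 in 7, and none of these 3 was higher in rat 1 in any class by that measure. The widest gap was in Fosb in crypt-like cells, at 175 CPM in rat 1 and 8.73 CPM (6 UMIs) in rat 2. The limit on epithelial marker UMIs left out 91 cells of the crypt clusters in rat 2, against 1 in rat 1. Those of rat 2 held Fosb at 76.6 CPM, so the size of this gap depends on that limit. In early enterocyte-like cells Fosb was 5.59 times as high in rat 1 (95% interval 5.10 to 6.14), Egr1 4.81 times (4.19 to 5.55) and Ier2 3.59 times (3.24 to 3.97), while Fos did not differ beyond counting error there (1.00, 0.955 to 1.05). Fos, Jun, Junb, Atf3 and Egr1 were all higher in rat 2 in goblet-like cells, whose cluster mix also differed between the rats. The rat, its dissociation, its library and the version of Cell Ranger named in its file header (3.1.0 for rat 1, 5.0.1 for rat 2) cannot be told apart, and the intervals cover counting error only.

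Cells of high mitochondrial share, a sign of damage, were used as a second view of the same genes, with mitochondrial UMIs taken out of the totals. The barcodes set aside for over 40% mitochondrial UMIs numbered 182 in rat 1 and 1510 in rat 2. Their Fos was at 689.9 and 497 CPM on that scale, against 303 and 318 in the enterocyte-like cells kept. Fosb was 834 and 148 against 246 and 62.2, and Jun 706 and 663 against 269 and 393. Klf6 was 34.8 and 80.9 against 20.9 and 52.1, and Junb 429 and 203 against 279 and 176. Egr1 and Ier2 were higher as well, at 254 and 47.2 against 81.2 and 27.6 and at 266 and 78.1 against 123 and 54.4. Klf4 was near its level in the cells kept (239.8 and 535 against 222 and 527), as was Atf3 (24.3 and 70.5 against 25.7 and 66.0), and Klf3 was so in rat 1 (118 against 119) but not in rat 2 (263 against 222). These barcodes are not the same mix of cells. Summed enterocyte markers were at 45317 and 75333 CPM in them, against 108834 and 103034 in the enterocyte-like cells, and summed goblet markers at 2138 and 2638 against 555 and 539. The part of that mix in the difference was not tested.

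Within the enterocyte-like cells kept, the cells above the median mitochondrial share had more Fos than the others (330.4 against 277 in rat 1, 347 against 299.9 in rat 2), Fosb (285 against 208, 74.1 against 54.6) and Egr1 (97.7 against 65.3, 32.3 against 24.6) in both rats. Atf3 went apart, at 12.7 against 38.2 in rat 1 and 111 against 37.5 in rat 2. Jun differed little in rat 1 (273 against 264) and more in rat 2 (587 against 269). In rat 2 the late bin had the highest median mitochondrial share, 29.7% against 22.8% in the early bin, whereas in rat 1 the bins stood at 13.9% and 14.1%, and Atf3 was higher late in both. With the limit on mitochondrial UMIs lowered to 20%, the late against early fold change of Atf3 was 5.18 and passed the threshold (edgeR adjusted p = 0.0279). That limit left 67 early and 66 late cells of rat 2, against 376 in each of these bins before. Clusters and bins were drawn anew, so the bins are not the same cells. The part of mitochondrial share in the Atf3 level was not tested.

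**Figure D4:**
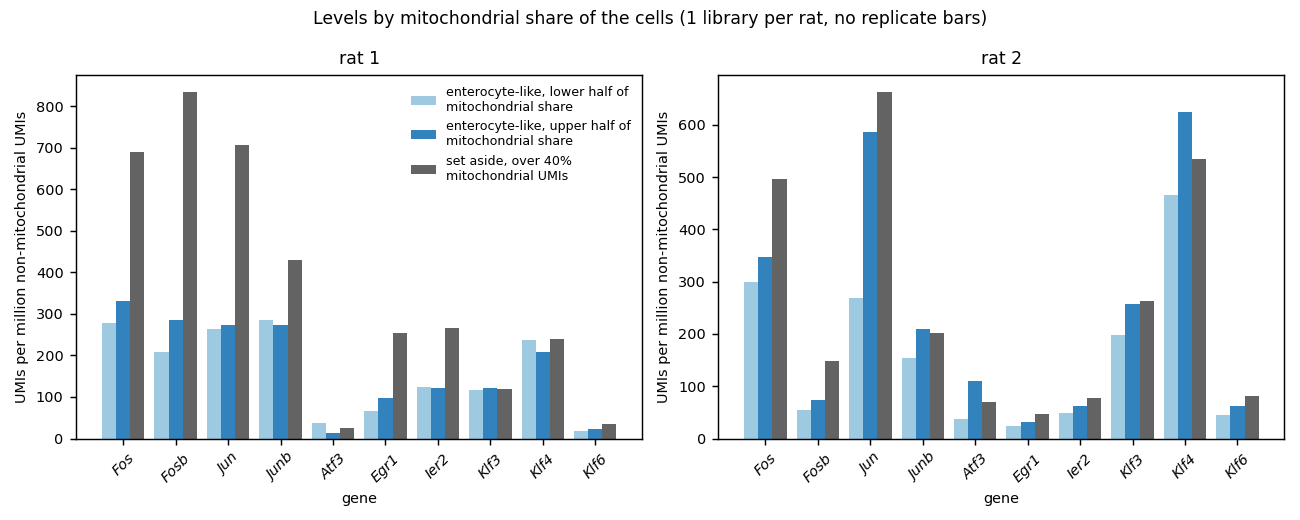
Level of each gene (y axis, CPM without mitochondrial UMIs, bars from 0) in enterocyte-like cells below and above the median mitochondrial share and in barcodes set aside for over 40% mitochondrial UMIs, for each rat (panels). Each bar is 1 library without replicates, and Fos, Fosb, Jun, Egr1, Ier2 and Klf6 are highest in the barcodes set aside in both rats, while Klf4 in rat 2 is highest in cells above the median.

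Over the 20 sums of class and rat, on the log2 CPM scale, the genes whose pattern was most like that of each of the 10 were named by Pearson's r, as a description of points that share libraries and depth. Junb and Atf3 were most alike among the 10 (r = 0.85), followed by Fos and Atf3 (0.81), Jun and Junb (0.75) and Klf3 and Klf4 (0.73), and Egr1 and Klf4 were least alike (-0.03). Across all tested genes Atf3 was most like Tp53inp2 (0.90), Atf4 (0.88), the factor of the integrated stress response, and Ppp1cb (0.88). Fos was most like Camk2n1 (0.91), Gmppa (0.91) and Rrbp1 (0.87), and Jun like Arhgap12 (0.93), Higd1a (0.85) and Dsg2 (0.85). Junb was nearest to Atp6v0d1 (0.85), Tspan5 (0.85) and Atf3, and Egr1 to Adcy8 (0.79), Nucb2 (0.78) and Zfp467 (0.75). For Fosb the nearest were Rab2a (0.78), Ssu72 (0.75) and Sqor (0.71), and for Ier2 they were Sptssb (0.76), Ccl6 (0.75) and Txnip (0.75). Klf3 was nearest to Rnf13 (0.97), Cog4 (0.97) and Cpt1a (0.96), Klf4 to Tmf1 (0.88), Tcf7l2 (0.88) and LOC498222 (0.88), and among the genes near Klf6 were Ypel5 (0.93) and Sdcbp (0.92).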

How the data were processed

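The authors deposited raw UMI counts per gene and barcode for each rat, made with Cell Ranger on Rnor6 and not normalized. The study's filters of over 5000 UMIs and at most 40% mitochondrial UMIs were applied, its limits of 200 to 5800 genes only as an alternative. Cells were integrated and clustered in Seurat 5.3.0 (R 4.3.3; 2000 variable genes, 20 components, resolutions 0.3 and 0.5), and clusters were named from marker lists by levels set after the clusters were seen. The 10 genes and the lists were chosen with earlier results of these data known. Cells of crypt clusters with at most 10 epithelial marker UMIs, and cells of the immune cluster with more, were left out. Doublets were kept, and Scrublet called 119 cells of rat 1 (1.97%) and 2 of rat 2 (0.0868%), a share at which the caller may not have worked.

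UMI counts were summed over 10 classes and 2 rats and tested with edgeR 4.0.16 (TMM, default low-count filter, quasi-likelihood test, threshold 0.05) in 1 model of 7 comparisons, each class weighing the same. Standard errors are the fold change over the square root of F. Values per rat use a prior count of 2. All classes were taken from both animals, which pairs their sums by rat. Over 45 pairs of classes the correlation of the rat differences had a median of 0.190 (0.0575 to 0.873). The rats are separate animals. The main model had no rat term and took the sums of each rat as independent. Its p-values thus rest on the spread between 2 animals pooled over the 10 classes, not on that of differences within each rat. Named genes are all 10 and, per list and direction, up to 3 with the largest fold change past the threshold and the same direction in both rats, from comparisons with a called member and from late against early. Further genes were chosen after their values were seen. For each of the 10, the 3 genes nearest in pattern are named, except 1 that is not reported here. Intervals (95%) and limits at 3 UMIs cover counting error only. The test was tried on simulated counts. Alternatives were DESeq2 1.42.0, no low-count filter, the rat as a block, each rat alone, other filters, clusterings and scalings.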

Additional observations from a re-analysis of the deposited data

Results flagged for a closer look

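Barcodes outside the comparisons also carried UMIs of the 10 genes, which is why they are listed here. With mitochondrial UMIs in the totals, their summed level was 1747 CPM in rat 1 and 924 CPM in rat 2 in barcodes with over 5000 UMIs and over 40% mitochondrial UMIs. It was 1100.1 and 1149 CPM in barcodes with at most 5000 UMIs and at most 40% mitochondrial UMIs. The level was 1810.5 and 1522 CPM in the clusters left unnamed, 1405 and 1511.5 CPM in cells of the immune cluster with epithelial transcripts, and 152 and 64.4 CPM in the erythroid cluster. With mitochondrial UMIs taken out of the totals, the barcodes with over 40% of them were at 3596 and 2586 CPM. All cells kept were at 1571 and 1906 CPM on that scale. No cause of these levels was tested.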

How the results depend on the processing

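No fold change with an unadjusted p under 0.05 changed sign under any alternative or in either rat alone. The number of the 10 genes called moved by over 1.5 times as follows, and the cause was not tested except where the alternative drops cells. Late against early enterocyte-like cells went from 0 to 2 under DESeq2 and without the low-count filter, to 4 with the replicate block, and to 1 with a mitochondrial limit of 20% and with common score limits for both rats. Goblet-like cells went from 4 to 1 under library totals and to 7 without the cluster with Paneth markers. EEC-like cells went from 3 to 5 with the block. Tuft-like cells went from 0 to 1 under DESeq2 and to 2 without the filter and with the block. CHE-like cells went from 1 to 3 without the filter, 4 with the block, and 2 with the 20% limit and at resolution 1.0. Immune cells, whose model includes 8 cells of rat 1 that do not bear out their label, went from 3 to 5 without the filter and with the block, and to 1 with the 20% limit, without called doublets and under library totals, and to 0 with all cells of the cluster. The block lost no call of the 10 genes in any comparison. The number of all genes called also moved under many of these alternatives, as the next paragraph gives. Calls added by an alternative, here and above, are therefore not read as results about the 10 genes alone. Library totals moved the median fold change of all genes by -0.55 (late against early) to 0.87 (crypt-like). Library totals, the score from enterocyte markers and the last changes for goblet-like and immune cells were chosen after seeing the data.

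All genes called late against early numbered 17, and between 0 (library totals, the immune class left out, or 200 to 5800 genes per cell) and 1308 (the block), with 175 under DESeq2, 445 without the filter, 551 with common score limits, 233 with the score from enterocyte markers, 91 with the 20% limit, 39 without integration and 29 at resolution 1.0. Elsewhere that count rose by over 1.5 times without the filter (goblet-like 651 to 1000, EEC-like 655 to 1180, CHE-like 531 to 835, immune 1948 to 3001) or with the block (goblet-like 1196, tuft-like 704 to 1190, CHE-like 971, immune 3224). It was 1227 in goblet-like cells without the cluster with Paneth markers, 822 in CHE-like cells with the 20% limit and 893 in immune cells with all cells of the cluster. The class highest by CPM stayed so in 18 of 20 pairs of gene and rat with mitochondrial genes out of the totals, whereas the class highest by share of cells with a UMI stayed so in 7 of 20 without thinning, so no such order is read from shares. Rat 1 gave under 25 cells each of EEC-, tuft- and CHE-like cells, and rat 2 gave 34 crypt-like cells, which limits what those values can show.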
